A study of Mus musculus with 12 samples.

Results

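The dose pattern of the response to indole-3-propionic acid (IPA) was described over all 12 libraries of the series, which were 12 of 12. IPA is an indole that gut bacteria make from tryptophan. Bone marrow cells of WT C57BL/6 mice were cultured in medium with GM-CSF and IL-6, a pair of cytokines that drives marrow cells towards immature myeloid cells with suppressive functions (myeloid-derived suppressor cells), and they were harvested at day 5. The 3 groups of 4 libraries received vehicle (0.1% DMSO), 10 µM IPA or 50 µM IPA, and all groups shared the strain, the medium and both cytokines. The study calls the higher dose supraphysiological and reports that viability in such cultures was slightly lower with it. For that reason it centred its own expression analysis on the lower dose. The part that reduced viability had in any result below was not tested. The libraries were chosen by dose alone, and genes with more than 0.5 CPM (counts scaled to a common library size) in at least 2 of the 12 libraries entered one model, which left 14894 of the 54532 genes in the table. The question was which genes differed among the 3 doses, and whether a gene moved steadily with the dose, moved at 50 µM alone, or was highest or lowest at 10 µM. Whether the libraries of a group came from separate animals or cultures is not given in the labels, so p-values measure the spread between these libraries, which may be technical.

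Such a culture holds cells of differing programmes. Granulocyte and monocyte precursors divide and store antimicrobial proteins in granules, with primary granules filled first and secondary granules later. Macrophages instead stop dividing and build up phagocytic receptors, lysosomal proteases and chemokines, and they can take on alternative activation, marked in mice by the secreted protein Retnla. Indoles are known ligands of the aryl hydrocarbon receptor AHR, a transcription factor that induces cytochrome P450 enzymes. Cells short of amino acids or under mitochondrial stress raise amino acid enzymes, transporters and tRNA synthetases through the transcription factor ATF4, in what is called the integrated stress response.

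Library totals lay between 20451312 and 28038612 counts, and TMM factors, which correct for composition, lay between 0.977 and 1.02. The first principal component (27.0% of the variance) separated the 50 µM libraries (19.1 to 41.7) from vehicle (−36.5 to −1.004) and 10 µM (−25.02 to −7.44), which overlapped. Within groups, libraries differed in how expression depended on exon length: vehicle library 4 (slope −0.0383), 10 µM library 1 (−0.0485) and 50 µM library 3 (−0.0664) had the lowest slope of their group, and the other 9 libraries lay between −0.0119 and 0.0410. List counts below that moved by more than 1.5 times without these 3 libraries are given with and without them. Summed markers showed a myeloid culture: macrophage markers came to 627 to 734 CPM with vehicle, 779 to 927 CPM at 10 µM and 874 to 920 CPM at 50 µM (6 of 6 with a group difference). Of these 6, Adgre1 alone had its highest mean at 50 µM (203, 215 and 324 CPM), while C1qa (64.9, 86.6 and 62.8 CPM) and Mertk (22.1, 30.6 and 21.9 CPM) were near their vehicle means there. Neutrophil markers were far higher, at 14470 to 20860, 13850 to 16050 and 10550 to 15080 CPM, with overlapping groups (3 of 6 with a group difference). Among them Ly6g alone had its highest mean at 50 µM (45.8, 51.0 and 53.9 CPM). Eosinophil markers came to 1007 to 1249, 847 to 1075 and 793 to 1069 CPM. In contrast, the 4 erythroid markers stayed at or below 1.08 CPM and the 4 T and NK cell markers at or below 2.58 CPM in every library. Markers of B cells were low but not absent, at 15.7 to 22.8 CPM, 19.8 to 31.7 CPM and 32.2 to 51.7 CPM. In bulk RNA, fewer cells of a type and less RNA per cell cannot be told apart, and the part that the mix of cells had in any result below was not tested.

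A group difference (quasi-likelihood F test over the 3 groups, adjusted p under 0.05) was found for 2437 of 14894 genes, or 16.4%. This share is the background for every list count below. Genes were sorted by their fitted group means: a step between neighbouring doses was taken as flat when it was under 25% of the range between the highest and lowest of the 3 means. By this sort, 538 genes (3.61% of all tested) were higher only at 50 µM and 563 (3.78%) lower only at 50 µM. A steady rise was seen in 328 genes (2.20%) and a steady fall in 389 (2.61%). A turn at 10 µM was seen in 365 genes that were highest there (2.45%) and 149 that were lowest there (1.00%). Few genes moved at 10 µM and kept that level, 75 higher (0.504%) and 30 lower (0.201%). Sorting is a description of fitted means, and a first step taken as flat was not shown to be 0. Most first steps that were not flat did not pass a test of their own either. They passed in 47 of the 365 genes highest at 10 µM and 4 of the 149 lowest there. Among steady genes they passed in 26 of the 328 rises and 7 of the 389 falls. The order of the patterns depends on the limit: at 10% there were 563 steady rises and 613 steady falls against 212 genes higher and 207 lower only at 50 µM. Among all 14894 genes, called or not, turns were the most frequent shape (38.6%), against 21.1% of the genes with a group difference, and changes at 50 µM alone took 27.1% and 45.2%. The median range between group means was 0.46 (log2) for steady genes, 0.48 for changes at 50 µM alone, 0.51 for kept changes and 0.54 for turns.

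**Figure D1:**
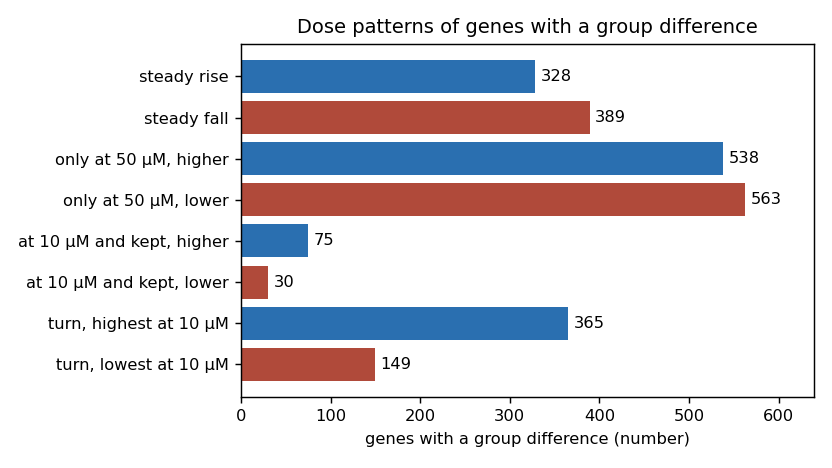
Number of genes with a group difference in each of the 8 dose patterns (horizontal axis, number of genes; blue, higher or highest; red, lower or lowest). Changes at 50 µM alone (538 higher, 563 lower) were the most frequent at the sorting limit of 25%, an order that reverses against steady changes at a limit of 10%, and kept changes (75 and 30) the least frequent.

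The steps were also tested one by one in the same model. From vehicle to 10 µM, 102 genes rose (0.685%) and 16 fell (0.107%). From 10 µM to 50 µM, 867 genes rose (5.82%) and 1105 fell (7.42%). Over the whole range, from vehicle to 50 µM, 1167 genes rose (7.84%) and 1283 fell (8.61%). Both neighbouring steps passed for 60 genes, 24 of them rising at both, 5 falling at both, and 31 changing direction at 10 µM. These steps share the 10 µM libraries, so that a chance deviation of those libraries pushes them to opposite signs. The 31 became 78 with DESeq2, 71 without a filter on low counts and 16 with a block for replicate number. They became 78 without the 3 libraries of lowest slope and 98 with the slope as a covariate. The 29 genes moving one way became 64 with DESeq2, 48 without the filter and 74 with the covariate. The count of the first step depended on the method and on single libraries. Its 118 calls became 288 with DESeq2, 235 without a filter on low counts, 61 with only the 8 libraries of the pair, 238 without the 3 libraries of lowest slope and 303 with the slope as a covariate. They became 51, 60 or 193 without vehicle library 1, 2 or 4, and 44 or 57 without 10 µM library 2 or 3. In the same way, the 29 genes moving one way through both steps became 15, 16 and 19 without vehicle libraries 1, 2 and 3, 17, 12 and 11 without 10 µM libraries 1, 2 and 3, and 18 without 50 µM library 2. Of the pattern counts, the steady rise became 505 without vehicle library 4 and the steady fall 247 without 50 µM library 2. The genes lowest at 10 µM became 310 without vehicle library 4, 98 without 10 µM library 2, and 86 and 93 without 50 µM libraries 2 and 4. The kept falls became 18, 18, 15 and 60 without vehicle libraries 1 to 4, and 14 and 19 without 50 µM libraries 2 and 3.

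**Figure D2:**
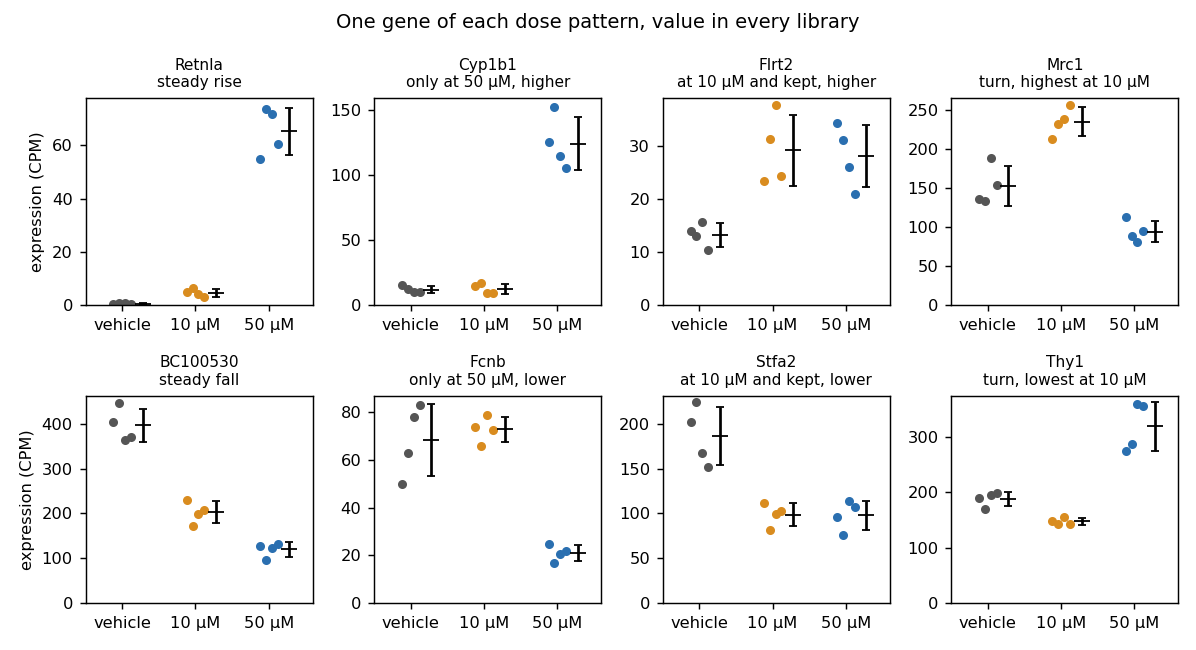
Expression in CPM (vertical axes, linear from 0) of one gene for each dose pattern in the 12 libraries (points, in library order within each group), with the group mean and SD (bar beside the points). Retnla rose from under 1 CPM to 55.1 CPM or more, Mrc1 was highest at 10 µM and lowest at 50 µM, and Cyp1b1 and Fcnb moved only at 50 µM.

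Genes that rose steadily are given first. Retnla, the secreted protein RELMα of alternatively activated macrophages (chr16:48842551-48844461, GRCm38), had 0.492, 0.743, 0.717 and 0.318 CPM with vehicle, 5.11, 6.49, 4.10 and 3.11 CPM at 10 µM and 55.1, 73.7, 71.7 and 60.7 CPM at 50 µM. The groups did not overlap, and the rise was 3.04 ± 0.27 (log2, SE) to 10 µM (adjusted p = 5.59e-05) and a further 3.80 ± 0.18 to 50 µM (adjusted p = 5.45e-09). Ccl24, an eosinophil-attracting chemokine (chr5:135569937-135573049), had 1.55, 1.23, 1.17 and 1.31 CPM with vehicle, 5.61, 5.62, 4.03 and 3.53 CPM at 10 µM and 16.5, 19.2, 10.6 and 5.92 CPM at 50 µM. Its 3 groups did not overlap either, with steps of 1.83 ± 0.32 (adjusted p = 0.0121) and 1.48 ± 0.28 (adjusted p = 0.00208). Rnase2a, a ribonuclease of the eosinophil family, rose from 16, 0, 3 and 20 counts in the vehicle libraries to 88, 78, 48 and 48 counts at 10 µM and 129, 251, 152 and 186 counts at 50 µM. Cck, which encodes the peptide hormone cholecystokinin, rose over the whole range (2.65 ± 0.37, adjusted p = 0.00015), while its first step of 0.82 did not pass. Vsig8, an immunoglobulin-domain surface protein, had group means of 0.953 ± 0.0997, 2.73 ± 0.506 and 5.08 ± 0.786 CPM (SD, n = 4).

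Other genes that passed both steps upwards are given next. The growth factor receptor gene Fgfr1 had 9.08, 7.43, 7.62 and 5.80 CPM with vehicle, 14.8, 17.04, 15.1 and 12.7 CPM at 10 µM and 33.9, 36.9, 28.4 and 32.7 CPM at 50 µM. Its groups were fully separate, and its steps were 0.99 ± 0.13 and 1.15 ± 0.12 (log2). Csf1, which encodes the macrophage growth factor M-CSF, had 82.1, 82.6, 109.6 and 91.5 CPM with vehicle, 102, 138, 132 and 134 CPM at 10 µM and 189.9, 178, 196 and 186 CPM at 50 µM, and 10 µM library 1 lay within the vehicle range. Lpl, a lipase that releases fatty acids from lipoproteins, rose by 0.43 ± 0.07 and then by 0.50 ± 0.07 (means 1524 ± 140.5, 2049 ± 101 and 2902 ± 93.1 CPM). Tnfsf8, the CD30 ligand, rose by 0.74 ± 0.10 and 0.51 ± 0.10, and Pdgfa, a growth factor for fibroblasts, by 0.57 ± 0.12 and 0.64 ± 0.12. Among the 29 genes that passed both steps in one direction, 9 did so in each of the 12 leave-outs of a single library: Retnla, Fgfr1, Lpl, Ccl2, Tnfsf8, Gpnmb and Vsig8 among the rises, and BC100530 and Stfa1 among the falls. The other 20 did so in 1 to 11, among them Pdgfa in 1, Csf1 in 4, Ccl9 in 5, Mgl2 in 6, Batf3, Ctsl and Rnase2a in 10 and Ccl24 in 11.

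Of 22 chemokine ligand genes tested, 16 had a group difference, beside 16.4% of all genes: 9 rose steadily, 3 rose at 10 µM and kept that level, 2 rose only at 50 µM, 1 was highest at 10 µM and 1 fell only at 50 µM. The median difference from vehicle was 0.34 (log2) at 10 µM and 0.72 at 50 µM, and over all genes it was −0.01 and 0.00. Ccl2, a ligand of the monocyte receptor Ccr2 (chr11:82035571-82037453), had 38.02, 43.3, 52.2 and 43.5 CPM with vehicle, 84.6, 78.8, 59.7 and 71.1 CPM at 10 µM and 109.7, 107, 125 and 86.5 CPM at 50 µM. Every 10 µM library lay above every vehicle library, and every 50 µM library above every 10 µM library. Ccl9, a macrophage chemokine, had 707 ± 67.1, 1019 ± 149 and 1426 ± 202 CPM (SD, n = 4). Ccl7, another ligand of Ccr2, rose by 1.09 ± 0.22 at 10 µM (adjusted p = 0.0321) and then differed by 0.35 ± 0.21 (adjusted p = 0.312), so it was sorted as kept. Ccl8 went the other way at the high dose, with 1.25, 1.04, 4.75 and 3.34 CPM with vehicle, 7.93, 6.97, 3.57 and 3.94 CPM at 10 µM and 1.47, 0.440, 0.437 and 0.546 CPM at 50 µM. The Ccl8 step of −2.98 ± 0.50 from 10 to 50 µM passed the test (adjusted p = 0.000945), and vehicle libraries 3 and 4 lay above libraries 1 and 2. Of the receptors, 8 of 16 chemokine receptor genes had a group difference, spread over 6 patterns, with medians of −0.04 at 10 µM and −0.05 at 50 µM. Among them, Ccr3, the eosinophil receptor for Ccl24, rose over the whole range (1.60 ± 0.30, adjusted p = 0.00164), and Cx3cr1, the fractalkine receptor of patrolling monocytes, fell only at 50 µM (−1.10 ± 0.16, adjusted p = 0.000316).

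Of 17 alternative activation genes, 14 had a group difference, with 5 steady rises (Retnla, Ccl24, Mgl2, Ccl17 and Clec10a), 3 rises only at 50 µM, 4 genes highest at 10 µM, 1 lowest at 10 µM and 1 fall only at 50 µM. Medians were 0.27 at 10 µM and 0.51 at 50 µM. The lectin gene Mgl2 had 279, 276, 303 and 308 CPM with vehicle, 371, 396, 383 and 349 CPM at 10 µM and 567, 693, 675 and 592 CPM at 50 µM, in 3 groups without overlap. Mrc1, the mannose receptor CD206 (chr2:14229392-14332057), did not follow it: its values were 136, 133, 189 and 154 CPM with vehicle, 212, 232, 238 and 256 CPM at 10 µM and 112, 88.1, 80.6 and 95.3 CPM at 50 µM. It rose by 0.62 ± 0.11 to 10 µM (adjusted p = 0.0137) and fell by 1.32 ± 0.11 to 50 µM (adjusted p = 2.13e-06), below every vehicle library. Chil3, the lectin Ym1, was lower at 10 µM than with vehicle (−0.33 ± 0.07, adjusted p = 0.0384), with 5971 ± 260.5, 4748 ± 228 and 5258 ± 539.8 CPM (SD, n = 4) in the 3 groups. The genes usually grouped as one programme took 5 of the 8 dose patterns.

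B cell genes were at low levels. Of 16 tested, 11 had a group difference (7 steady rises, 2 rises only at 50 µM, 1 kept rise and 1 gene highest at 10 µM), and the medians were 0.38 at 10 µM and 0.89 at 50 µM. Ms4a1, which encodes CD20, had 3.75, 3.64, 3.09 and 4.29 CPM with vehicle, 7.35, 5.66, 4.25 and 4.17 CPM at 10 µM and 9.04, 11.03, 8.25 and 7.06 CPM at 50 µM. The vehicle and 50 µM libraries did not overlap, while the 10 µM libraries overlapped both. Pax5, the B lineage transcription factor, rose only at 50 µM (1.04 ± 0.23, adjusted p = 0.00723). The steady rises numbered 4 without vehicle library 1. Dendritic cell genes rose in 6 of 13 tested members, 3 steadily and 3 only at 50 µM, and 1 more was highest at 10 µM (medians 0.11 and 0.38). Their calls numbered 4 without 50 µM library 1, and their steady rises 5 without vehicle library 2 or 10 µM library 3 and 1 without the 3 libraries of lowest slope. Batf3, a transcription factor of cross-presenting dendritic cells, had 7.30, 6.46, 5.51 and 6.44 CPM with vehicle, 10.8, 10.5, 10.6 and 8.56 CPM at 10 µM and 14.9, 15.8, 14.9 and 13.2 CPM at 50 µM, in 3 separate groups. Irf8, which directs monocyte and dendritic cell fate, rose by 0.40 ± 0.06 over the whole range (adjusted p = 0.000218).

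The stefin A cluster on chromosome 16, whose genes encode inhibitors of cysteine proteases, was mostly lower with IPA. Of 9 genes tested, 8 had a group difference, 5 as a steady fall and 3 as a fall at 10 µM that was kept, with medians of −0.87 at 10 µM and −1.11 at 50 µM. BC100530 (chr16:36359382-36367748) had 405, 445, 364 and 371 CPM with vehicle, 230.4, 171, 199 and 209 CPM at 10 µM and 127, 96, 123 and 131 CPM at 50 µM. Its 3 groups did not overlap, and it fell by 0.97 ± 0.10 (adjusted p = 0.000253) and again by 0.76 ± 0.10 (adjusted p = 0.000162). Stfa1 (chr16:36276951-36285373) fell by 1.12 ± 0.12 and 0.60 ± 0.12. Its neighbour Stfa2 (chr16:36403992-36408457) had 203, 224, 167 and 152 CPM with vehicle, 111, 81.6, 99.8 and 102 CPM at 10 µM and 95.7, 75.9, 113 and 107 CPM at 50 µM. Stfa2 fell by 0.92 ± 0.13 at 10 µM, and its second step was −0.01 ± 0.13 (adjusted p = 0.964), with the 10 and 50 µM libraries overlapping. These genes are near-identical copies, so how the counting shared reads among them is uncertain, and the split into steady and kept falls with it.

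Genes of granulocyte precursors were lower as well. Of 8 primary granule genes, 7 had a group difference and all 7 were lower, 4 steadily and 3 only at 50 µM, with medians of −0.23 at 10 µM and −0.83 at 50 µM (2 steady falls without vehicle library 4). Ms4a3, a membrane protein of granulocyte and monocyte precursors (chr19:11629496-11640851), had 279, 273, 306 and 372 CPM with vehicle, 268, 241, 210.2 and 227 CPM at 10 µM and 154, 119, 152 and 131 CPM at 50 µM. Every library of one dose lay below every library of the dose before. The first step of Ms4a3 did not pass on its own (−0.38 ± 0.11, adjusted p = 0.143), and the second did (−0.77 ± 0.11, adjusted p = 0.000208). Elane, neutrophil elastase, had 273, 278, 379.7 and 440.2 CPM with vehicle, 322, 308, 305 and 341 CPM at 10 µM and 160.0, 105, 121 and 172 CPM at 50 µM. Only the 50 µM libraries stood apart, below the others, and the step from 10 µM was −1.19 ± 0.16 (adjusted p = 0.000111). Mpo, myeloperoxidase, fell over the same step by 0.79 ± 0.14 (adjusted p = 0.00114).

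Of 12 secondary granule genes, 10 had a group difference: 5 fell steadily (3 without 50 µM library 2), 2 fell only at 50 µM, 2 were lowest and 1 was highest at 10 µM (medians −0.18 and −0.39). Cd177, a surface protein of neutrophils, had 1064, 1099, 1215 and 1354 CPM with vehicle, 979.7, 935, 1008 and 1007 CPM at 10 µM and 709.9, 605, 699.9 and 749 CPM at 50 µM, and no groups overlapped. Ltf, lactoferrin, had 3950.0 ± 344, 3393 ± 437 and 2451 ± 266 CPM (SD, n = 4). Camp, the cathelicidin precursor, fell from 10 to 50 µM by 0.49 ± 0.11 (adjusted p = 0.00857), and its first step was −0.13 ± 0.11 (adjusted p = 0.828). Of 14 mature neutrophil genes, 5 had a group difference (35.7%, beside 16.4% of all genes). Of these, 3 were lower only at 50 µM, 1 fell steadily and 1 was higher only at 50 µM. Medians were −0.04 and −0.30, and 8 genes had a group difference without vehicle library 4 or 50 µM library 3. Without the 3 libraries of lowest slope 11 had a group difference and 6 were lower only at 50 µM, and with the slope covariate 10 and 5. Cxcr2, the receptor that draws neutrophils into tissue, fell from 110.3 to 141 CPM at 10 µM to 67.1 to 79.7 CPM at 50 µM (−0.76 ± 0.11, adjusted p = 0.000397). Other steady falls included Ptgs2, the inducible cyclooxygenase, with 11.7 ± 1.77, 9.42 ± 1.15 and 5.42 ± 0.555 CPM (SD, n = 4), and Sall2, a zinc finger factor, with 5.77 ± 0.891, 4.61 ± 0.540 and 2.42 ± 0.654 CPM.

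Some cell division genes were lower at 50 µM, part of them with a smaller difference at 10 µM. Of 40 DNA replication genes, 18 had a group difference and all 18 were lower, 8 steadily and 10 only at 50 µM, with medians of −0.07 at 10 µM and −0.28 at 50 µM. Of 30 mitosis genes, 10 had a group difference (33.3%, beside 16.4% of all genes), and all 10 were lower. Of these, 6 fell steadily (10 without the 3 libraries of lowest slope) and 4 fell only at 50 µM, with medians of −0.12 and −0.24. No gene of either list with a group difference was higher at 50 µM than with vehicle. Cdc6, which loads the replicative helicase, had 44.8, 49.7, 48.03 and 46.2 CPM with vehicle, 42.4, 42.7, 39.2 and 42.1 CPM at 10 µM and 36.9, 34.1, 29.3 and 31.8 CPM at 50 µM, in 3 groups without overlap. Cdc20, an activator of the anaphase-promoting complex, had 89.6 ± 2.70, 80.7 ± 0.643 and 65.3 ± 5.73 CPM (SD, n = 4), and its first step of −0.15 ± 0.07 did not pass (adjusted p = 0.479). Ccne2, cyclin E2, moved at the high dose alone (−0.64 ± 0.10, adjusted p = 0.000563). Of 5 genes that passed both steps downwards, Hmgn2, a nucleosome-binding protein, fell by 0.27 ± 0.06 and 0.26 ± 0.06, and Ncapg2, a condensin subunit, had steps of −0.27 ± 0.06 and −0.22 ± 0.06. Both steps passed in 1 of 12 leave-outs for Hmgn2 and in 2 for Ncapg2.

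**Figure D3:**
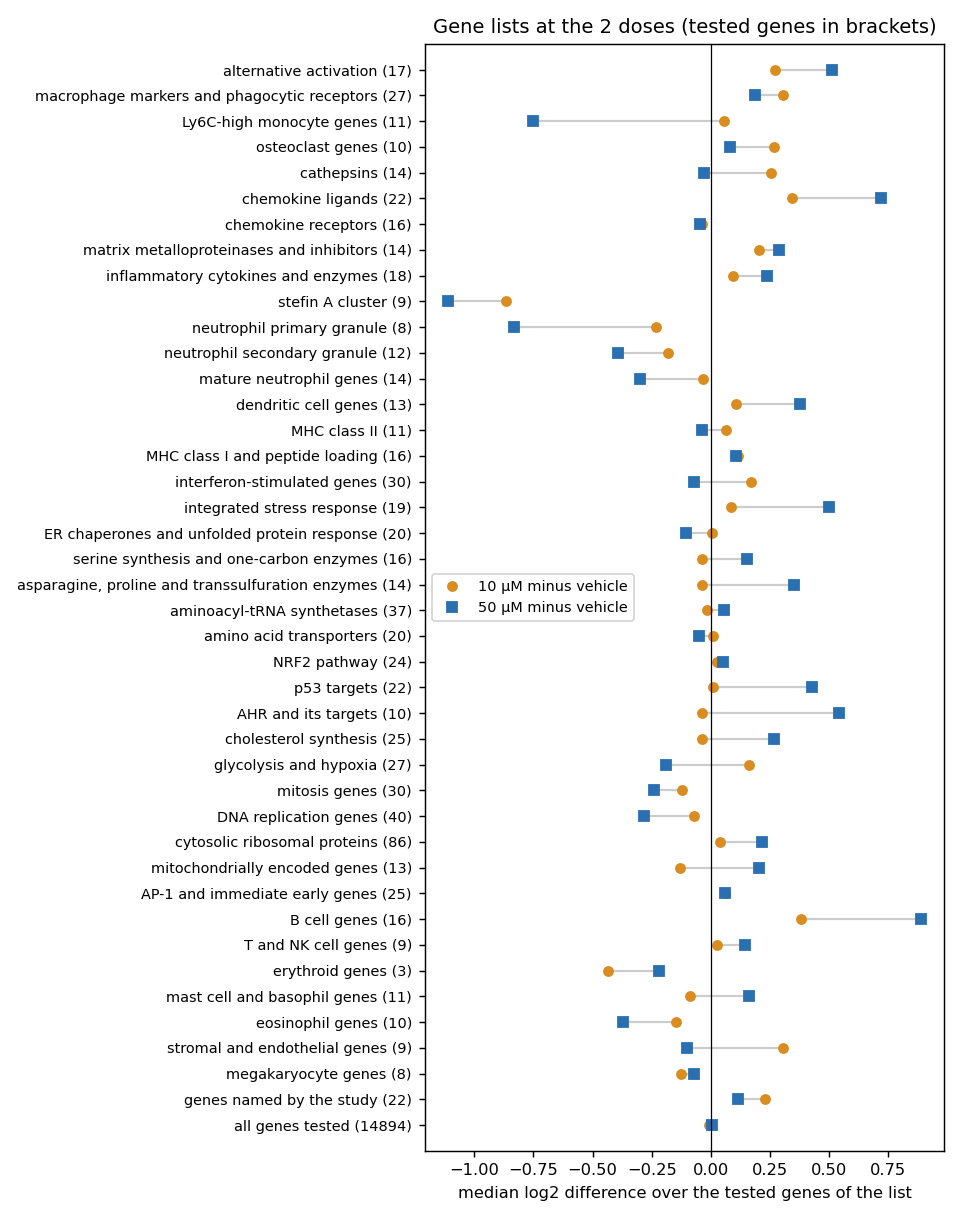
Median log2 difference from vehicle over the tested genes of each of the 41 gene lists and over all genes tested (horizontal axis; circles, 10 µM; squares, 50 µM; number of tested genes in brackets). Chemokine ligands and B cell genes lay further right at 50 µM than at 10 µM, and glycolysis and hypoxia genes lay above 0 at 10 µM and below 0 at 50 µM.

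Amino acid and stress genes were among those that moved at 50 µM alone. Whether the reduced viability reported for the higher dose had a part in this was not tested. Cth, which makes cysteine from cystathionine (chr3:157894248-157925077), had 0.870, 1.37, 1.39 and 1.95 CPM with vehicle, 1.56, 0.920, 1.54 and 1.47 CPM at 10 µM and 20.2, 28.5, 36.4 and 30.9 CPM at 50 µM. Vehicle and 10 µM overlapped (first step −0.00 ± 0.27, adjusted p = 0.999), while all 50 µM libraries lay far above, a step of 4.38 ± 0.22 (adjusted p = 9.42e-09). Slc7a3, a transporter of cationic amino acids, had 3, 3, 5 and 9 counts with vehicle, 0, 8, 8 and 4 counts at 10 µM and 103, 142, 86 and 162 counts at 50 µM. Aldh1l2, the mitochondrial enzyme that oxidises formyl folate, had 0.681, 0.557, 0.717 and 1.39 CPM with vehicle, 0.906, 0.872, 1.09 and 1.79 CPM at 10 µM and 4.98, 7.22, 8.06 and 8.57 CPM at 50 µM. Its first step of 0.47 ± 0.33 did not pass (adjusted p = 0.764), and its second step was 2.63 ± 0.29 (adjusted p = 1.91e-05). Of 19 integrated stress response genes, 12 had a group difference, 11 of them higher only at 50 µM (7 without 10 µM library 1), with medians of 0.08 at 10 µM and 0.50 at 50 µM. Atf4 itself was among the 11. Chac1, a glutathione-degrading enzyme, had 7.57, 6.98, 8.02 and 9.18 CPM with vehicle, 7.86, 7.46, 6.70 and 7.05 CPM at 10 µM and 11.3, 14.6, 18.2 and 20.2 CPM at 50 µM, and Trib3, a pseudokinase that binds ATF4, had 10.3, 13.1, 14.8 and 19 CPM with vehicle, 13.4, 15.9, 16.9 and 14.7 CPM at 10 µM and 27.4, 35.03, 36.4 and 44.1 CPM at 50 µM. For both genes the 50 µM libraries lay above all others, and the vehicle and 10 µM libraries overlapped. Gdf15, a secreted stress protein, rose by 2.00 ± 0.30 from 10 to 50 µM (adjusted p = 0.000341).

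The related enzyme lists were mixed. Of 14 asparagine, proline and transsulfuration genes, 12 had a group difference: 6 higher only at 50 µM, 1 rising steadily, 1 lowest at 10 µM, 3 falling steadily and 1 lower only at 50 µM (medians −0.04 and 0.35). Gpt2, a mitochondrial alanine aminotransferase, rose by 1.18 ± 0.10 from 10 to 50 µM (adjusted p = 1.8e-06). Pycr1, the last enzyme of proline synthesis, had 4.69, 3.94, 5.24 and 7.43 CPM with vehicle, 4.09, 4.16, 3.57 and 4.40 CPM at 10 µM and 11.1, 11.03, 11.9 and 12.4 CPM at 50 µM. Its 50 µM libraries lay above the rest, and the first step of −0.39 ± 0.17 that made it a turn did not pass (adjusted p = 0.474). Of 16 serine and one-carbon genes, 10 had a group difference, 5 of them higher and 2 lower only at 50 µM, with 1 steady rise, 1 steady fall and 1 highest at 10 µM (medians −0.04 and 0.15). Mthfd2, a mitochondrial folate enzyme, rose from 103 to 119 CPM at 10 µM to 176 to 202 CPM at 50 µM. Of 37 aminoacyl-tRNA synthetase genes, 8 had a group difference (21.6%, near the 16.4% of all genes), 6 of them higher only at 50 µM (Aars, Cars, Gars, Mars, Wars and Yars), 1 rising steadily (Sars) and 1 lowest at 10 µM (medians −0.01 and 0.06). Of 20 amino acid transporter genes, 12 had a group difference, with 5 higher and 3 lower only at 50 µM, 2 highest and 1 lowest at 10 µM, and 1 steady fall (medians 0.01 and −0.05). Slc1a4, a transporter of neutral amino acids, rose by 1.06 ± 0.12 from 10 to 50 µM, and Slc6a9, a glycine transporter, by 1.78 ± 0.24.

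The promoters of these genes were searched for TGATGNAA, the core of the element that ATF4 binds together with C/EBP factors, because the members that rose together came from lists of its known targets. RefSeq promoter windows on GRCm38.p6 (250 bases before to 50 after each start) were found for 27 of the 33 genes of the 5 amino acid and stress lists that were higher only at 50 µM. On either strand, 8 of the 27 (29.6%) held TGATGNAA: Aars, Asns, Chac1, Gars, Nupr1, Slc1a4, Trib3 and Yars. Of the 27025 genes of the promoter table, 4.51% held it. The lists were drawn up as known targets of this response, so a higher share was built into the choice and nothing is read from it. The same 27 genes held GCGTG, the core of the AHR element, in 66.7% against 35.2%, and TGACNNNGC, the core of the antioxidant element, in 29.6% against 14%, and none of the 4 NRF2 pathway genes higher only at 50 µM held the latter. All comparison shares are over the 27025 genes of the promoter table, whether or not they were expressed here. Windows were found for 70.4% of the tested genes, and no share over tested genes alone was taken. Nothing is read from these differences either. A match is a description of letters, not of binding. The upstream matches are shown because they lie beside starts of genes that moved at 50 µM alone, with Pycr1 added from the genes lowest at 10 µM. Each excerpt is read 5′ to 3′ on the strand of the gene, with the match in capitals (TTGCATCA and TTTCATCA are matches on the other strand).
Aars, chr8:111033710-111033757, plus strand: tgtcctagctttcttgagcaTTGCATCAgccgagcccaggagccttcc
Asns, chr6:7693210-7693252, minus strand: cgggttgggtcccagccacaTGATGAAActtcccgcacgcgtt
Chac1, chr2:119351029-119351076, plus strand: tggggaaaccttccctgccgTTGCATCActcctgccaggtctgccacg
Gars, chr6:55037951-55037998, plus strand: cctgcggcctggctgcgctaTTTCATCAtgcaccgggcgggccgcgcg
Nupr1, chr7:126625553-126625600, minus strand: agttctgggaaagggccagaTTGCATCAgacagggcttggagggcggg
Pycr1, chr11:120643824-120643871, minus strand: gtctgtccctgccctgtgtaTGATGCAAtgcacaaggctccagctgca
The first matched base lay 112 bases before the start in Aars, 23 in Asns, 193 in Chac1, 30 in Gars, 110 in Nupr1 and 103 in Pycr1.

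Of 10 tested genes of AHR and its targets, 6 had a group difference, 4 higher only at 50 µM (Ahr, Tiparp, Nqo1 and Cyp1b1) and 2 lowest at 10 µM (Ahrr and Cyp1a1), with medians of −0.04 at 10 µM and 0.54 at 50 µM. Cyp1b1, a cytochrome P450 of the AHR response (chr17:79701537-79715061), had 15.9, 12.1, 10.04 and 9.94 CPM with vehicle, 14.9, 16.7, 9.22 and 9.66 CPM at 10 µM and 125, 152, 114 and 105 CPM at 50 µM. The vehicle and 10 µM libraries overlapped, with a first step of 0.07 ± 0.19 (adjusted p = 0.961), and the second step was 3.30 ± 0.19 (adjusted p = 3.42e-08). Cyp1a1, the classical target, was near the limit of counting, with 5, 3, 0 and 4 counts in the vehicle libraries, 0, 0, 1 and 0 counts at 10 µM and 12, 29, 28 and 7 counts at 50 µM, so its place among the genes lowest at 10 µM rests on at most 5 counts in any vehicle or 10 µM library. The 250 bases before the start of Cyp1b1 are printed because it moved at 50 µM alone, and they hold 1 match to GCGTG, on the other strand and 76 bases before the start (capitals).
Cyp1b1, chr17:79715062-79715311, minus strand: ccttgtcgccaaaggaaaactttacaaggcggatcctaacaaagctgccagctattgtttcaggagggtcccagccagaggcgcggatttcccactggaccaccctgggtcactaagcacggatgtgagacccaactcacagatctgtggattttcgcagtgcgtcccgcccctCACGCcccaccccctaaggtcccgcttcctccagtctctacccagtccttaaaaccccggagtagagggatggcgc

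Other stress and metabolic lists shared the pattern in part. Of 22 p53 target genes, 12 had a group difference (54.5%, beside 16.4% of all genes). Of these, 10 were higher only at 50 µM (6 without 10 µM library 4) and 2 rose steadily (medians 0.01 and 0.43). Pmaip1, the cell death protein NOXA, had 55.8, 56.8, 52.8 and 46.1 CPM with vehicle, 50.7, 50.3, 50.2 and 57.8 CPM at 10 µM and 80.6, 87.2, 87.8 and 88.2 CPM at 50 µM, with the 50 µM libraries above all others. Plk2, a p53-induced kinase, rose steadily, with 34.8 ± 6.66, 50.03 ± 6.18 and 68.98 ± 3.83 CPM (SD, n = 4). Of 25 cholesterol synthesis genes, 11 had a group difference, and all 11 were higher only at 50 µM (7 without 50 µM library 4). Their list had medians of −0.04 at 10 µM and 0.27 at 50 µM. Hmgcs1, which makes the precursor of mevalonate, had 75.5, 72.3, 81.01 and 75.1 CPM with vehicle, 72.6, 71.5, 81.7 and 79.2 CPM at 10 µM and 106, 112, 132 and 141 CPM at 50 µM, and Sc5d, a late enzyme of the pathway, had 38.8, 39.7, 44 and 41.9 CPM with vehicle, 42.1, 43.7, 40.3 and 37.4 CPM at 10 µM and 60.2, 68.8, 76.1 and 76.7 CPM at 50 µM. Vehicle and 10 µM overlapped for both genes, and 50 µM lay above. Of 24 NRF2 pathway genes, 11 had a group difference over 6 patterns, with medians of 0.02 and 0.05: 4 were higher only at 50 µM and 3 rose steadily. Osgin1, an oxidative stress gene, rose by 0.72 ± 0.09 from 10 to 50 µM (adjusted p = 9.52e-05). Hmox1, which degrades heme, and Gsr, glutathione reductase, instead changed direction at 10 µM, as given below.

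Markers of minor cells were found here too. Of 11 mast cell and basophil genes, 5 had a group difference (3 without 50 µM library 3), 2 higher only at 50 µM (1 without 10 µM library 1), 2 lowest at 10 µM and 1 falling steadily (medians −0.09 and 0.16). Gata2, a transcription factor of mast cells and basophils, rose from 37.3 to 50.1 CPM at 10 µM to 92.8 to 108 CPM at 50 µM (1.17 ± 0.09, adjusted p = 9.15e-07), and the surface receptor Cd200r3 rose by 1.11 ± 0.10 (adjusted p = 3.75e-06). Summed mast cell and basophil markers were 280.3 to 355 CPM, 225 to 318 CPM and 266 to 379 CPM, so their groups overlapped. Of 10 eosinophil genes, 6 had a group difference, 4 of them lower (2 steadily, or 1 without vehicle library 3 or 4, 50 µM library 1 or 2, or the 3 libraries of lowest slope) and 2 higher (medians −0.15 and −0.37). Alox15, a lipoxygenase, rose by 1.33 ± 0.17 from 10 to 50 µM, while Ear1, an eosinophil ribonuclease with close copies, fell by 0.74 ± 0.12. Of 8 megakaryocyte genes, 3 had a group difference (37.5%, beside 16.4% of all genes), or 1 without 10 µM library 2 or 50 µM library 4. The platelet chemokine Ppbp rose by 0.72 ± 0.09 at the same step (medians of the list −0.13 and −0.07).

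Genes lower only at 50 µM are given next. Fcnb, the lectin ficolin B of bone marrow myeloid cells (chr2:28076378-28084885), had 49.8, 62.9, 78.1 and 83.3 CPM with vehicle, 73.9, 66.04, 78.8 and 72.7 CPM at 10 µM and 24.7, 16.6, 20.3 and 22.01 CPM at 50 µM. Vehicle and 10 µM overlapped, and 50 µM lay below both, a step of −1.80 ± 0.14 (adjusted p = 1.26e-06). Tns1, a protein of focal adhesions, had 39.2, 34.2, 30.1 and 24.1 CPM with vehicle, 31.6, 40.2, 36.3 and 38.4 CPM at 10 µM and 12.1, 7.66, 6.12 and 8.99 CPM at 50 µM, a step of −2.07 ± 0.18 (adjusted p = 1.92e-06). Stac2, an adaptor protein of calcium channels, had 20.5, 19.1, 25.5 and 19.4 CPM with vehicle, 27.4, 30.3, 31.2 and 28.03 CPM at 10 µM and 9.82, 6.74, 7.77 and 7.06 CPM at 50 µM. Its 10 µM libraries all lay above the vehicle libraries, but that step did not pass (0.47 ± 0.12, adjusted p = 0.0807). Plod2, a lysyl hydroxylase of collagen, varied widely before the high dose, at 1.93 to 6.44 CPM with vehicle and 3.04 to 10.8 CPM at 10 µM, and was at 0.922 to 1.47 CPM at 50 µM. Cd6, a lymphocyte surface receptor, fell by 1.87 ± 0.26 (adjusted p = 0.000157).

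Of 11 genes of Ly6C-high monocytes, 8 had a group difference: 4 lower only at 50 µM, 1 falling steadily and 3 highest at 10 µM. Medians were 0.06 at 10 µM and −0.75 at 50 µM. Ccr2, the receptor that brings monocytes out of the marrow (chr9:124101950-124113557), had 277, 296, 385 and 429.9 CPM with vehicle, 487, 507, 527 and 499.9 CPM at 10 µM and 225, 189, 204 and 198 CPM at 50 µM. It was higher at 10 µM than with vehicle in every library (0.54 ± 0.11, adjusted p = 0.0302) and then lower than both other groups at 50 µM (−1.31 ± 0.11, adjusted p = 2.06e-06), and both steps of Ccr2 passed in 6 of 12 leave-outs of a single library. F13a1, a coagulation factor of monocytes, had 66.6, 75.1, 185 and 213 CPM with vehicle, 163, 175, 273 and 266 CPM at 10 µM and 52.1, 21.7, 28.3 and 39.8 CPM at 50 µM. Vehicle libraries 3 and 4 were higher than libraries 1 and 2, and the first step of 0.70 ± 0.33 did not pass (adjusted p = 0.539), whereas the fall of −2.63 ± 0.36 did (adjusted p = 0.000142). Ly6c2, which encodes the Ly6C antigen itself, had 507, 478, 642 and 696 CPM with vehicle, 551, 556, 524 and 508 CPM at 10 µM and 489, 362, 462 and 469 CPM at 50 µM, and its F test did not pass (adjusted p = 0.0619), while its contrast of 50 µM with vehicle did (−0.38 ± 0.11, adjusted p = 0.027). The F test of Ly6c2 passed without vehicle library 1 or 2, with DESeq2, without the filter and with the slope covariate. Summed monocyte markers were 1320 to 1707 CPM with vehicle, 1626 to 1718 CPM at 10 µM and 949 to 1172 CPM at 50 µM, with the 50 µM libraries below all others.

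Of 11 MHC class II genes, 3 had a group difference (27.3%, beside 16.4% of all genes), H2-Aa, H2-Ab1 and H2-Eb1, all lower only at 50 µM (medians 0.06 and −0.04, with 6 having a group difference without vehicle library 4 and 2 without 50 µM library 4, where H2-Eb1 had an adjusted p of 0.0733). H2-Ab1 had 587, 587, 699.9 and 715 CPM with vehicle, 739, 689, 661 and 614 CPM at 10 µM and 502, 506, 503 and 394 CPM at 50 µM, a step of −0.50 ± 0.09 (adjusted p = 0.0018). Of 16 MHC class I and peptide loading genes, 5 had a group difference (31.2%), of which 4 were higher (medians 0.12 and 0.11). From 10 to 50 µM the class I genes H2-Q6 and H2-Q7, near-identical copies, rose, H2-Q6 by 0.87 ± 0.12 and H2-Q7 by 0.98 ± 0.20, and their reads may be shared. They were 2 of 3 class I genes sorted as higher only at 50 µM, a number that was 1 without vehicle library 3 or 4 or 50 µM library 3, and 0 without the 3 libraries of lowest slope. Calls in the class I list numbered 3, 2, 3, 2 and 3 without vehicle library 1 or 3 and without 50 µM library 2, 3 or 4. Of 30 interferon-stimulated genes, 14 had a group difference, in several directions: 5 were highest at 10 µM (3, 2, 1, 3 and 2 without vehicle library 2, 10 µM library 1 or 2, or 50 µM library 2 or 4), 4 were lower and 2 higher only at 50 µM, and 3 rose steadily (medians 0.17 and −0.07). Calls numbered 9, 7, 8, 9 and 7 without 10 µM library 1 or 2 and without 50 µM library 2, 3 or 4. Cmpk2, a nucleotide kinase induced by interferon, fell by 0.91 ± 0.11 from 10 to 50 µM (adjusted p = 5.3e-05), and Usp18, which dampens the interferon receptor, rose by 0.87 ± 0.15 over the whole range (adjusted p = 0.000821). Of 20 endoplasmic reticulum chaperone genes, 6 had a group difference (30%, beside 16.4% of all genes), with medians of 0.0026 and −0.11. Of these, 4 were lower only at 50 µM (2 without 10 µM library 1, without 50 µM library 4 or without the 3 libraries of lowest slope). Dnajb9, a chaperone partner of Hspa5, fell by 0.74 ± 0.08 (adjusted p = 2.52e-05). Calls in that list numbered 3, 3 and 2 without 10 µM library 2 and without 50 µM library 3 or 4.

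Changes that were complete at 10 µM were few. Flrt2, a membrane protein of cell adhesion and guidance (chr12:95692226-95785215), had 13.96, 13.1, 15.6 and 10.3 CPM with vehicle, 23.4, 31.3, 37.7 and 24.4 CPM at 10 µM and 34.3, 31.2, 26.1 and 20.9 CPM at 50 µM. Both IPA groups lay above all vehicle libraries and overlapped each other, with a first step of 1.14 ± 0.17 (adjusted p = 0.00457) and a second of −0.05 ± 0.17 (adjusted p = 0.878). Atp6v0d2, a proton pump subunit of osteoclasts and macrophages, had 50.7, 41.4, 60.8 and 50.8 CPM with vehicle, 94.98, 90.8, 79.8 and 81.3 CPM at 10 µM and 82.8, 81.5, 77.9 and 69.9 CPM at 50 µM. It rose by 0.77 ± 0.10 at 10 µM (adjusted p = 0.0021). Of 10 osteoclast genes, 6 had a group difference: 3 kept rises (Atp6v0d2, Acp5 and Ocstamp), 2 highest at 10 µM and 1 higher only at 50 µM (medians 0.27 and 0.08). Ocstamp, a fusion protein of osteoclasts, rose by 0.74 ± 0.15 (adjusted p = 0.0253). Tnfsf4, the OX40 ligand, rose by 0.74 ± 0.12, Ahnak2 by 0.88 ± 0.18, and Fblim1, a filamin-binding adhesion protein, by 0.68 ± 0.10 at 10 µM, and all 3 second steps were 0.21 or less. Downwards, the kept genes included Stfa2, Stfa2l1 and Stfa3 of the stefin cluster. Klf5, a Krüppel-like transcription factor, had 22.6 ± 1.27, 16.9 ± 1.79 and 15.5 ± 2.36 CPM (SD, n = 4), and its fall passed over the whole range (−0.55 ± 0.11, adjusted p = 0.00286) but not at 10 µM (adjusted p = 0.101).

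Both steps passed, with opposite signs, for 31 genes, 30 of them highest at 10 µM. These included the complement genes C1qb, C1qc and C3ar1, the scavenging receptors Mrc1 and Siglec1, the bridging protein Mfge8, the clotting genes F3 and F7, the matrix genes Fn1, Sdc1 and Sdc3, and the lysosomal protein Psap. The single gene lowest at 10 µM was Gsr, with 534, 545, 492 and 534 CPM with vehicle, 454, 434, 421 and 442 CPM at 10 µM and 504, 488, 514 and 529 CPM at 50 µM. Of the 31, 7 passed both steps in each of the 12 leave-outs of a single library (Eps8, F3, Fn1, Hmox1, Sdc3, Slc7a2 and Zranb3), and the other 24 did so in 1 to 11, among them Igf1 and Sdc1 in 4, Ccr2 and Gpr35 in 6, Il33 and C1qb in 7, Mrc1 in 8 and Gsr in 3. The count itself became 14, 14 and 64 without vehicle library 1, 2 and 4, 15, 7 and 11 without 10 µM libraries 1, 2 and 3, and 15 and 17 without 50 µM libraries 2 and 4. These 60 genes with both steps called were named after their values were seen.

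**Figure D4:**
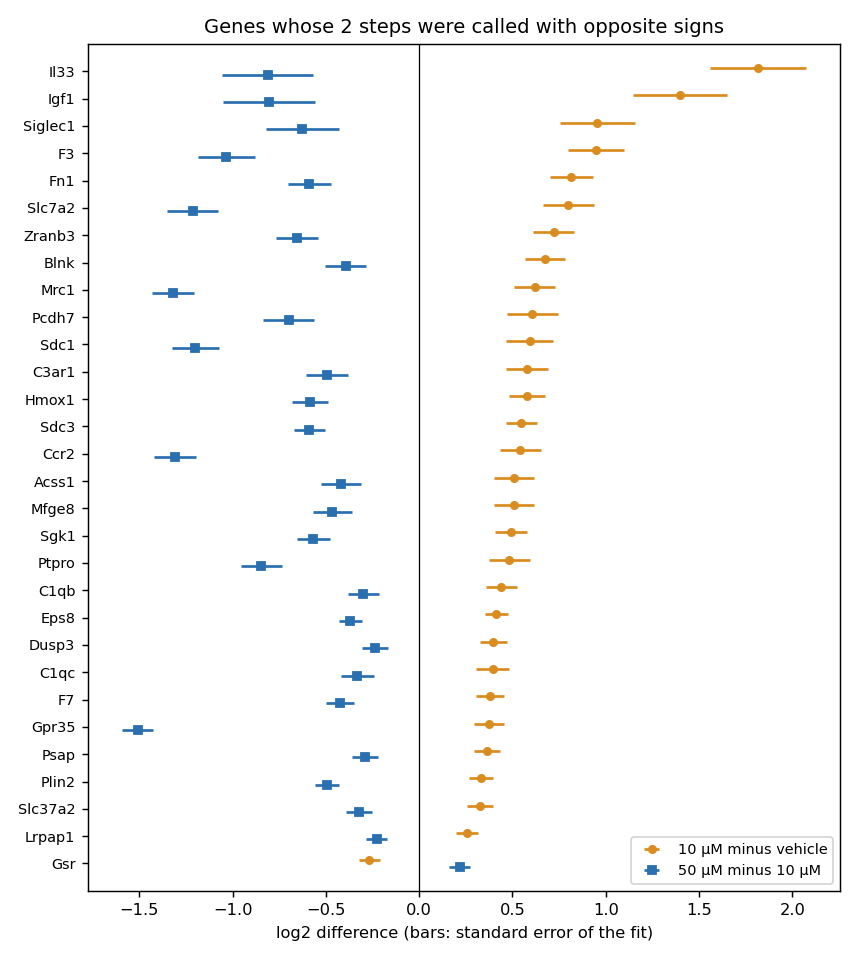
Log2 difference from vehicle to 10 µM (circles) and from 10 µM to 50 µM (squares) with the standard error of the fit (bars) for 30 of the 31 genes whose steps both passed with opposite signs (a clone-named gene is left out). Il33 and Igf1 had the largest first steps, Gpr35 the largest second step, and Gsr alone fell first.

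Fn1, fibronectin (chr1:71585520-71653200), had 1408, 1293, 1599.9 and 1504 CPM with vehicle, 2049, 2521, 2957 and 2688 CPM at 10 µM and 1897, 1832, 1331 and 1725 CPM at 50 µM. Its 10 µM libraries lay above every other library, with steps of 0.82 ± 0.12 (adjusted p = 0.00274) and −0.59 ± 0.12 (adjusted p = 0.00285). Hmox1, heme oxygenase 1 (chr8:75093621-75100589), had 165, 157, 196 and 226 CPM with vehicle, 266, 286, 300.2 and 259 CPM at 10 µM and 198, 172, 184 and 188 CPM at 50 µM. It rose by 0.58 ± 0.10 and fell by 0.58 ± 0.10, back into the vehicle range. F3, tissue factor, which starts coagulation, had 5.83, 4.42, 7.17 and 5.45 CPM with vehicle, 9.96, 10.7, 12.3 and 11.04 CPM at 10 µM and 6.25, 5.35, 5.53 and 4.37 CPM at 50 µM. Its steps were 0.95 ± 0.15 (adjusted p = 0.00576) and −1.03 ± 0.15 (adjusted p = 0.000301). Slc7a2, an arginine transporter (chr8:40862396-40922308), had 189, 185, 269 and 267 CPM with vehicle, 327, 398, 469 and 390.4 CPM at 10 µM and 195, 169, 143 and 176 CPM at 50 µM, and no 10 µM library overlapped either other group. Sdc1 and Sdc3, heparan sulfate proteoglycans, rose by 0.59 ± 0.12 and 0.55 ± 0.08, and their second steps were −1.20 ± 0.13 and −0.59 ± 0.08. Il33, an alarmin cytokine, had 1.17, 0.854, 0.806 and 1.51 CPM with vehicle, 3.12, 3.92, 5.27 and 3.07 CPM at 10 µM and 2.54, 2.38, 1.99 and 1.85 CPM at 50 µM, and its 50 µM libraries still lay above vehicle (1.01 ± 0.26, adjusted p = 0.0154). Igf1, insulin-like growth factor 1, had 4.54, 5.64, 14.8 and 10.5 CPM with vehicle, 21.8, 25.2, 22.1 and 24 CPM at 10 µM and 15, 14.03, 11.8 and 12.4 CPM at 50 µM, with vehicle libraries 3 and 4 above libraries 1 and 2. Gpr35, a receptor for tryptophan metabolites, had 39.9, 40.3, 47.1 and 40.5 CPM with vehicle, 51.4, 56.9, 57.1 and 51.98 CPM at 10 µM and 20.5, 20.2, 17.8 and 17.8 CPM at 50 µM. Its fall of −1.51 ± 0.08 was so much larger than its rise of 0.37 ± 0.08 that the sort placed it among the genes lower only at 50 µM.

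Of 27 macrophage marker and phagocytic receptor genes, 21 had a group difference: 11 were highest at 10 µM, 5 kept a rise from 10 µM, 2 rose steadily, 1 rose only at 50 µM and 2 fell only at 50 µM. Medians were 0.31 at 10 µM and 0.19 at 50 µM. C1qb, a chain of the first complement component, had 139.8, 126, 136 and 135 CPM with vehicle, 207, 186, 178 and 157 CPM at 10 µM and 150.2, 143, 164 and 135 CPM at 50 µM. Gpnmb, a transmembrane glycoprotein of lysosomes, rose steadily, with 845, 676, 879.7 and 751 CPM with vehicle, 1334, 1369, 1066 and 1055 CPM at 10 µM and 1801, 1752, 1631 and 1647 CPM at 50 µM and no overlap between groups. Apoe, an apolipoprotein of lipid transport, fell only at 50 µM (−1.40 ± 0.23, adjusted p = 0.000861). Of 14 cathepsin genes, 8 had a group difference, 5 of them highest at 10 µM (Ctsa, Ctsb, Ctsc, Ctsk and Ctss), with 1 kept rise, 1 steady rise and 1 steady fall, and medians of 0.25 and −0.03. Those calls fell to 4, with 2 highest at 10 µM, without 10 µM library 2. Ctsl, a lysosomal cysteine protease that stefins inhibit, rose steadily, with 349.9, 310.2, 421 and 438 CPM with vehicle, 704, 697, 604 and 644 CPM at 10 µM and 852, 810.4, 937 and 812 CPM at 50 µM. Ctsc, which activates granule proteases, had 902, 855, 997 and 1159 CPM with vehicle, 1186, 1162, 1192 and 1083 CPM at 10 µM and 742, 686, 705 and 680.1 CPM at 50 µM. The Ctsc fall of −0.72 ± 0.08 passed (adjusted p = 2.43e-05), and its rise of 0.24 ± 0.08 did not (adjusted p = 0.269).

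Of 14 matrix metalloproteinase and inhibitor genes, 10 had a group difference, 5 of them highest at 10 µM, 2 kept, 2 higher only at 50 µM and 1 rising steadily (medians 0.20 and 0.29). The number highest at 10 µM was 2 without each of the 4 vehicle libraries, 10 µM library 2, and 50 µM libraries 2 and 3, and 3 without 50 µM libraries 1 and 4 or without the 3 libraries of lowest slope. Mmp13, a collagenase, had 23.9, 25.03, 58.2 and 46.04 CPM with vehicle, 98.8, 124, 86.3 and 83.8 CPM at 10 µM and 96.01, 74.5, 70.01 and 69.1 CPM at 50 µM. It rose by 1.36 ± 0.23 at 10 µM (adjusted p = 0.00811), and its second step of −0.34 ± 0.22 did not pass (adjusted p = 0.348). Mmp2, a gelatinase, rose only at 50 µM (1.18 ± 0.13, adjusted p = 2.12e-05). Cav1, caveolin 1, was one of 4 of 9 stromal and endothelial genes with a group difference (2 without 10 µM library 4, medians 0.31 and −0.10), and it had 8.89, 10.5, 11.9 and 11.5 CPM with vehicle, 22.1, 24.7, 22.3 and 19.01 CPM at 10 µM and 18.03, 18.9, 16.4 and 19.99 CPM at 50 µM. Of the 4 defining stromal and endothelial markers, Col1a2 had at most 8 and Pdgfra at most 5 counts in any library, while Col1a1 had 23 to 99 and Cdh5 had 4 to 22.

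Nos2, inducible nitric oxide synthase (chr11:78920787-78960254), had 6.73, 11.7, 29.8 and 44.5 CPM with vehicle, 27.6, 38.8, 72.8 and 47.95 CPM at 10 µM and 5.77, 1.69, 3.11 and 5.96 CPM at 50 µM. Its vehicle libraries varied widely and overlapped 10 µM, and the first step of 1.02 ± 0.45 did not pass (adjusted p = 0.483). All 50 µM libraries lay below, a step of −3.52 ± 0.52 (adjusted p = 0.000338). At 50 µM, Nos2 was below vehicle (−2.50 ± 0.52, adjusted p = 0.00345). Of 18 inflammatory cytokine and enzyme genes, Nos2 among them, 8 had a group difference, spread over 6 patterns, with medians of 0.09 and 0.24.

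Most glycolysis and hypoxia genes with a group difference were highest at 10 µM. Of 27 tested, 17 had a group difference, 13 of them highest at 10 µM, 3 higher only at 50 µM and 1 lower only at 50 µM, with medians of 0.16 at 10 µM and −0.19 at 50 µM. The median of the list in single libraries, relative to the vehicle mean, was −0.18, −0.18, 0.17 and 0.24 with vehicle, 0.09, 0.21, 0.30 and 0.16 at 10 µM, and −0.13, −0.18, −0.20 and −0.14 at 50 µM. Vehicle libraries 3 and 4 lay with the 10 µM libraries, and vehicle libraries 1 and 2 with the 50 µM libraries. Egln3, an oxygen-sensing prolyl hydroxylase induced by hypoxia, had 145, 186, 327 and 402 CPM with vehicle, 241, 339, 519 and 354 CPM at 10 µM and 129, 101, 135 and 153 CPM at 50 µM. Its rise of 0.46 ± 0.27 did not pass (adjusted p = 0.676), and its fall of −1.49 ± 0.27 did (adjusted p = 0.00167). Bnip3, a mitochondrial protein of hypoxic cells, had 28.6, 41.3, 83.4 and 88.5 CPM with vehicle, 64.4, 84.97, 119 and 94.2 CPM at 10 µM and 33.4, 34.8, 45.7 and 35.95 CPM at 50 µM, and Ak4, an adenylate kinase, had 36.1, 40.4, 62.9 and 66.7 CPM with vehicle, 58.1, 71.1, 105 and 71.8 CPM at 10 µM and 27.1, 25.9, 22.3 and 25.7 CPM at 50 µM. Both showed the same split among the vehicle libraries. The number highest at 10 µM was 4 or 5 without vehicle library 1 or 2, 8 or 5 without 10 µM library 2 or 3, and 7, 8 and 8 without 50 µM library 2, 3 and 4. Calls in the list numbered 10, 11 and 11 without 50 µM library 2, 3 and 4. Without the 3 libraries of lowest exon-length slope the number highest at 10 µM was 19. What set the vehicle libraries apart was not tested.

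**Figure D5:**
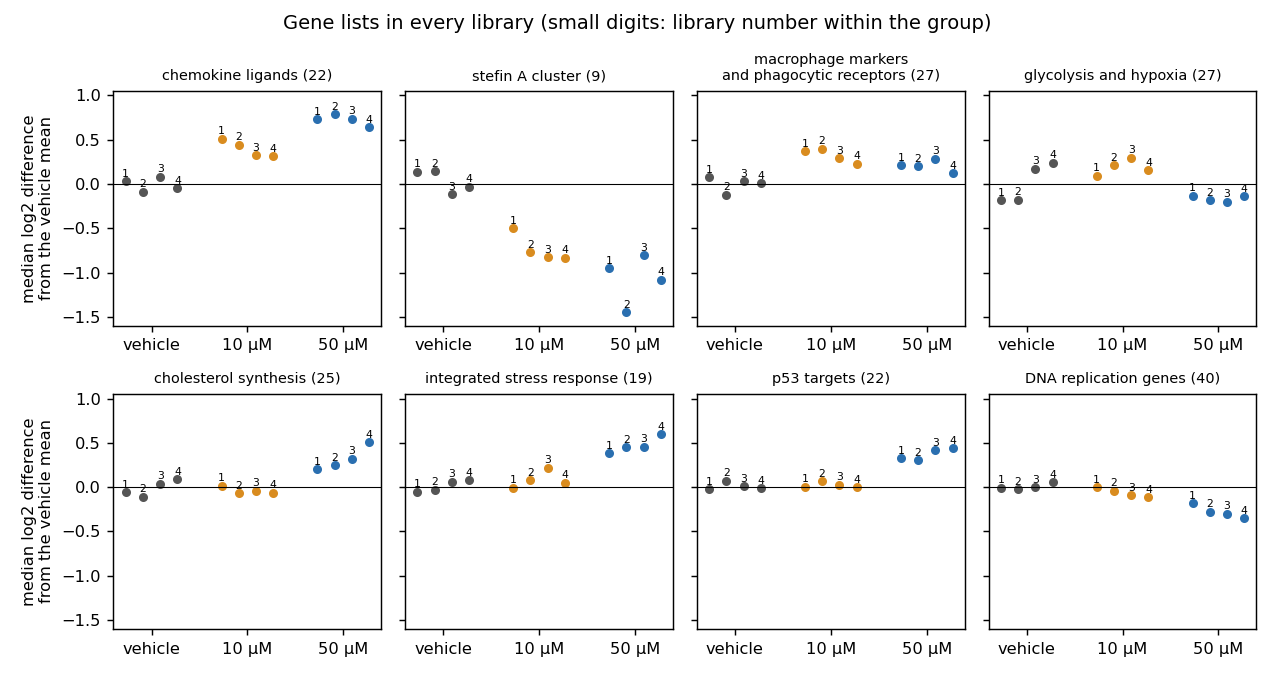
Level of 8 gene lists in each of the 12 libraries, as the median over the tested genes of log2 CPM minus the vehicle mean of the gene (vertical axis; small digits, library number within the group). Chemokine ligands and stefin A genes lay apart from vehicle at 10 µM in all 4 libraries, cholesterol, stress and p53 genes lay above vehicle at 50 µM, and the vehicle libraries of the glycolysis and hypoxia list split into 2 pairs.

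Genes lowest at 10 µM were fewer than those highest there, and in both groups most first steps did not pass. The first step passed for 4 of 149 genes lowest at 10 µM and for 47 of 365 highest there. Thy1, a GPI-anchored surface protein (chr9:44043384-44048579), had 189, 170.4, 194 and 199 CPM with vehicle, 148, 142, 155 and 143 CPM at 10 µM and 275, 288, 359 and 355 CPM at 50 µM. Its 3 groups did not overlap, with a first step of −0.35 ± 0.09 (adjusted p = 0.0769) and a second of 1.12 ± 0.09 (adjusted p = 9.15e-07). Stard10, a lipid transfer protein, had 5.56, 7.28, 5.91 and 7.67 CPM with vehicle, 5.33, 3.87, 4.67 and 4.85 CPM at 10 µM and 9.82, 7.91, 11.5 and 11.3 CPM at 50 µM, also in 3 groups without overlap. Tet1, an enzyme that oxidises methylated cytosine, and Trim6, a ubiquitin ligase, had second steps of 1.29 ± 0.27 and 1.40 ± 0.22 (adjusted p = 0.00456 and 0.000644). Egr1, an immediate early transcription factor, had 154, 175, 166 and 144 CPM with vehicle, 115, 136, 155 and 138 CPM at 10 µM and 188, 209, 209.8 and 252 CPM at 50 µM, and rose by 0.66 ± 0.10 from 10 to 50 µM (adjusted p = 0.000363). Of 25 AP-1 and immediate early genes, 6 had a group difference (24%, beside 16.4% of all genes, and 12 genes with the slope covariate), 3 highest (5 without 10 µM library 1 or without the 3 libraries of lowest slope) and 1 lowest at 10 µM and 2 rising steadily, and both medians were 0.06. Fosl1, an AP-1 subunit, fell from 10 to 50 µM by 0.84 ± 0.20 (adjusted p = 0.00894), and its group difference was lost without 50 µM library 3 or library 4 (adjusted p of up to 0.0661).

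The study names 22 genes or regulators in these cells, chosen on libraries of this series in an analysis centred on vehicle and 10 µM. Their direction between those groups is therefore not independent evidence. The same holds for how many had a group difference and how many were highest or lowest at 10 µM. Of the 22, 17 had a group difference: 6 highest at 10 µM, 3 kept rises, 3 steady rises, 2 steady falls, 2 lowest at 10 µM and 1 kept fall, with medians of 0.23 and 0.11. Spp1, osteopontin, had 1445, 1282, 2156 and 2118 CPM with vehicle, 3430.0, 3339, 3362 and 3011 CPM at 10 µM and 2502, 2397, 3196 and 2694 CPM at 50 µM, and its second step of −0.28 ± 0.14 did not pass (adjusted p = 0.202). Klf4, a factor of monocyte differentiation, had 36.4, 36.7, 36.5 and 31.3 CPM with vehicle, 42.1, 43.3, 44.8 and 43.6 CPM at 10 µM and 25.9, 20.1, 20.97 and 25.9 CPM at 50 µM, and of its steps only the fall passed (−0.90 ± 0.09, adjusted p = 9.64e-06). Cd68, a lysosomal glycoprotein, had 235 ± 30.3, 288 ± 16.3 and 283 ± 15.5 CPM (SD, n = 4), and its group difference (adjusted p = 0.0341) did not hold in 8 of 12 leave-outs of a single library, reaching 0.116 when vehicle library 1 was dropped. Pak1, a kinase of the cytoskeleton, fell steadily in 3 groups without overlap (−0.68 ± 0.06, adjusted p = 3.3e-06). Rbpj, the effector of Notch signalling, rose by 0.38 ± 0.05 (adjusted p = 0.000167). Lcn2, lipocalin 2, was lower at 10 µM in every library than with vehicle, but neither step passed (−0.34 ± 0.08 and 0.15 ± 0.08), and its group difference did not hold in 3 of 12 leave-outs, reaching an adjusted p of 0.0686 when 10 µM library 2 was dropped. Elf4, Elk3, Fos, Maz and Mitf did not pass the F test (adjusted p = 0.109, 0.22, 0.0716, 0.0978 and 0.104), although Elf4 passed the single contrast of 50 µM with vehicle (−0.20 ± 0.07, adjusted p = 0.0488). With the exon-length slope as a covariate 20 of the 22 were called, Fos, Maz and Mitf among them, and DESeq2 called Fos and Maz.

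The remaining lists held few calls, beside 16.4% of all genes. Of 86 cytosolic ribosomal protein genes, 3 had a group difference (3.49%), each higher only at 50 µM, with medians of 0.04 and 0.22. The number with a group difference was 44 without vehicle library 4 and 5 without 10 µM library 1, it was 1 without vehicle library 1 or 3, 10 µM library 3 or 4, or 50 µM library 3 or 4, and 38 without the 3 libraries of lowest exon-length slope, 11 of them higher only at 50 µM. The share of all counts in ribosomal protein genes was 3.09% to 4.03% with vehicle, 3.27% to 3.85% at 10 µM and 3.83% to 4.67% at 50 µM. Of 13 mitochondrially encoded genes, 2 had a group difference (medians −0.13 and 0.21), which became 1, 1 and 1 without 10 µM library 2 or 3 or 50 µM library 2, and 0 without 50 µM library 3 or 4. Of 9 T and NK cell genes, 1 had a group difference, Lck, which was lost without vehicle library 3, 10 µM library 1, 2 or 3, 50 µM library 1, 2 or 3, or the 3 libraries of lowest slope (medians 0.03 and 0.14). Of 3 erythroid genes, 1 had a group difference, the transferrin receptor gene Tfrc, which dividing cells of many types also use and which fell by 0.60 ± 0.07 over the whole range (adjusted p = 4.24e-05, medians of the list −0.43 and −0.22).

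At the limits of the sort, Tmed4 was the last gene inside the threshold (adjusted p = 0.049936) and Hhat the first outside it (adjusted p = 0.050021). Ski was just inside the genes highest at 10 µM, with a smaller step of 25% of its range, and Slc5a3 just outside the turns, with 24.8%. Strand was not stated for the counting. Reads of a gene whose exons overlap another gene on the opposite strand can therefore not be told apart from that gene, which applies among the genes above to Aldh1l2, BC100530, Cars, Ccne2, Cdc20, Cx3cr1, Elk3, F13a1, Fn1, Fosl1, Hmgcs1, Mpo, Pax5, Pdgfa, Plod2, Sdc3, Slc6a9, Slc7a2, Usp18 and Zranb3.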

How the data were processed

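Per the labels and the study's methods, stranded mRNA libraries were sequenced on an AVITI instrument, trimmed with Atropos, aligned with HISAT2 2.2.1 to mm10 (GRCm38.p6) and counted with featureCounts 2.0.1. The strand setting is not given in the sources used here. The authors deposited raw counts per gene for 12 libraries in 3 groups of 4, with 20451312 to 28038612 counts each. For the third 10 µM library, whose title repeats that of the second, the library name was used.

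From these counts, genes over 0.5 CPM in at least 2 libraries (14894) were fitted with TMM factors and the edgeR 4.0.16 quasi-likelihood test (R 4.3.3) over all 12 libraries, with an F test over the 3 groups, 3 contrasts, and Benjamini-Hochberg adjusted p-values at 0.05. Every adjusted p in the text comes from it, and log2 differences are given with the standard error of the fit. Fitted means were sorted by shape with a limit of 25% of the range. Scripts were tested on simulated data. Alternatives used limma 3.58.1, DESeq2 1.42.0, other scaling, filters, limits, thresholds, a replicate block and leaving out libraries. Members and the 41 gene lists were chosen with earlier results of these data known. Genes were named by a rule: the 5 with the largest range per shape and direction, at 5 CPM or more in the highest group and with an ordinary symbol, up to 3 per list, the genes the study names with Ly6c2 and Ccr2, and those nearest the limits. Genes with both steps called were added after their values were seen, as were other members that are listed by name within a count. Promoters were searched in 300-base RefSeq windows. Counting error limits genes at a few counts. Values of some genes are not reported here, and counts over lists include them.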

Additional observations from a re-analysis of the deposited data

Results flagged for a closer look

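In each group of 4 libraries, the highest and the lowest value of each of the 200 named genes was compared with the others by Dixon's ratio. Of 600 groups, 29 held a library far from the other 3, in 28 genes, and chance alone gives about 1 in 20 groups. No explanation was weighed.

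With vehicle, library 2 was low for Ecm1 (39.4 CPM) and Ptpro (16.9 CPM) and high for Wars (74.5 CPM). Vehicle library 3 was high for Gpr35 (47.1 CPM), Ocstamp (11.2 CPM) and Zranb3 (21.3 CPM), and vehicle library 4 was low for Klf4 (31.3 CPM).

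At 10 µM, library 1 was low for Csf1 (102.4 CPM, against 132 to 137.5 CPM in the others). Library 2 was low for Cth (0.920 CPM) and the noncoding RNA gene Panct2 (3.05 CPM). Library 3 was low for Cdc6 (39.2 CPM) and Sall2 (3.80 CPM) and high for Pak1 (73.7 CPM) and Tet1 (2.71 CPM), and it held the single Cyp1a1 count of the group (0.0376 CPM). Library 4 was low for Batf3 (8.56 CPM) and Nek6 (171 CPM) and high for Pmaip1 (57.8 CPM).

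At 50 µM, library 3 was high for 6 genes, namely the ribosomal protein genes Rpl17 (493.8 CPM, against 328.9 to 332.4 CPM) and Rps23 (609.7 CPM), H2-T22 (58.5 CPM), Il1r2 (417.5 CPM), Sars (219.2 CPM) and Tnfsf8 (33.9 CPM). It was also the library of lowest exon-length slope in its group, and the part of that slope in these values was not tested. Library 1 was high for Ccl8 (1.47 CPM) and low for Pmaip1 (80.6 CPM). Library 2 was low for Slc6a9 (3.88 CPM), and library 4 was low for H2-Ab1 (393.8 CPM) and Ifit3 (0.420 CPM).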

How the results depend on the processing

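Of the named genes, none changed direction under any alternative, and 24 of 200 lost and 4 gained a call in at least 1. Leaving out 1 library gave 1675 to 2997 genes with a group difference, 241 to 505 steady rises, 247 to 430 steady falls, 371 to 600 higher and 383 to 584 lower only at 50 µM, 51 to 102 kept rises, 14 to 60 kept falls, 265 to 477 highest and 86 to 310 lowest at 10 µM. It gave 44 to 193 calls from vehicle to 10 µM, 1346 to 2483 from 10 to 50 µM, 1772 to 2730 from vehicle to 50 µM, 7 to 64 turns and 11 to 40 steady changes with both steps called.

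DESeq2 gave 53 kept falls, 248 genes lowest at 10 µM, 288 calls from vehicle to 10 µM, and 78 turns and 64 steady changes with both steps called. Without a filter on low counts, the last 3 numbers were 235, 71 and 48, and with only the 8 libraries of the pair 61 genes were called from vehicle to 10 µM. A limit of 10% gave 563 steady rises, 613 steady falls, 212 higher and 207 lower only at 50 µM, 30 and 9 kept, and 273 lowest at 10 µM. A limit of 40% gave 119 steady rises, 142 steady falls, 878 lower only at 50 µM, 150 and 84 kept, and 228 highest and 72 lowest at 10 µM. The order of steady changes and changes at 50 µM alone therefore depends on the limit. At an adjusted p under 0.01 there were 176 steady rises, 176 steady falls, 313 higher and 299 lower only at 50 µM, 35 and 9 kept, and 192 highest and 50 lowest at 10 µM. A range of at least 1 (log2) left 441 genes.

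Replicate numbers showed no clear pairing of the libraries (12 pair correlations of −0.242 to 0.142, 2 over 0.1). This check cannot exclude pairing, because the correlated deviations also hold the differences in exon-length slope between libraries. The study used a repeated-measures test for cell counts of such cultures, and the labels do not say whether the libraries are paired. A replicate block gave 1948 genes with a group difference, 16 kept falls, 79 calls from vehicle to 10 µM and 16 turns with both steps called. Chosen after seeing the data, leaving out the 3 libraries of lowest exon-length slope gave 46 kept falls, 238 calls from vehicle to 10 µM and 78 turns with both steps called. The slope as a covariate, also chosen after seeing the data, gave 3807 genes with a group difference, 897 higher only at 50 µM, 118 and 58 kept, 568 highest and 312 lowest at 10 µM, 303 calls from vehicle to 10 µM, 3372 from 10 to 50 µM, and 98 turns and 74 steady changes with both steps called. Under this covariate the calls became 12 (6 without it) for AP-1 and immediate early genes, 16 (10) for mitosis, 10 (6) for endoplasmic reticulum chaperones, 5 (3) for MHC class II and 27 (3) for ribosomal proteins, with 6 (3) AP-1 genes highest at 10 µM, 12 (6) mitosis genes and 5 (3) dendritic cell genes steady, 7 (4) chaperone genes lower, and 10 (6) tRNA synthetase and 21 (3) ribosomal genes higher only at 50 µM. The cause was not tested for any of these changes.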
